A study of Rattus norvegicus with 18 samples.

Results

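The contrast described here set the callus phase of fracture healing against the other times in young rats. Its members are the 6 young arrays of the 18 arrays analysed here, chosen by their labels: the arrays from 3 days, 1 week and 2 weeks after fracture form the callus phase, and the arrays from no fracture, 4 weeks and 6 weeks form the other times. All rats were female Sprague-Dawley rats. A femur was fractured over an intramedullary rod, except in the no-fracture rats, which were sham controls in the study's methods. The young rats were 6 weeks old at fracture, and the 6 adult and 6 older arrays used for comparison came from rats 26 and 52 weeks old at fracture, taken at the same 6 times. RNA of 2 rats was pooled for each Affymetrix rat array, so each age and time is read once here. The study's other arrays of these ages and times were not analysed here. The rats of each phase differ in time and in age, so the spread within a phase is a spread between times and not between replicate animals of 1 condition. Time after fracture and the growth of a 6-week-old rat cannot be told apart in these arrays.

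A broken long bone heals through a callus. Cells of the periosteum and the surrounding tissue multiply and lay down a fibrous matrix, part of it turns into cartilage, and the cartilage is mineralised, invaded by vessels and replaced by woven bone that is later remodelled. The sampled tissue was the middle part of the femur with callus, cortical bone and marrow, so the same RNA also holds marrow, which makes red cells, granulocytes and B lymphocytes, and whatever muscle stayed on the bone. In such bulk samples fewer cells of a type and less RNA per cell cannot be told apart. The defining genes of these tissues were all read with high signals: type I collagen and osteocalcin for bone, beta globin for red cells and skeletal actin for muscle are described with their values in the paragraphs on their lists.

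A probe set, a group of short probes for 1 gene, gives a signal in arbitrary units of fluorescence. The median signal was 153.8 to 170.7 on the 6 young arrays, 694 of 8740 tested probe sets lay below the floor of 20 on all 6, and Pearson correlations of the log2 signals between pairs of young arrays were 0.875 to 0.967 over 15 pairs. Control probe sets for the 3' and 5' ends of the Gapdh transcript gave ratios of 1.69 without fracture, 1.50, 1.33 and 1.77 in the callus phase, and 3.48 and 6.57 at 4 and 6 weeks, against 1.15 to 1.83 on the 12 adult and older arrays. The beta-actin ratio was 2.29 and 3.06 on the 4- and 6-week young arrays and 1.82 to 2.06 on the other young arrays. The ratio is a customary sign of RNA quality, and it was raised on 2 of the 3 arrays of the other times. The no-fracture array, whose Gapdh ratio lay among those of the callus phase, therefore stands beside the pooled contrast in what follows.

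Over all 8740 probe sets, limma called 20 higher in the callus phase, 0.229% of those tested, and 12 lower, 0.137%, at an adjusted p under 0.05. Only 4 of the 20 and 8 of the 12 averaged a signal of 200 or more over the 6 arrays, and the rest were dimmer. With 4 residual degrees of freedom the estimate of spread leans on the other probe sets, which lent 0.91 degrees of freedom over all probe sets and 4.62 in a set without the dim ones. Among the 4039 probe sets whose signals averaged 200 or more over the 6 arrays, the same model called 234 higher (5.79%) and 221 lower (5.47%). The highest adjusted p that any of these 455 probe sets had over all probe sets was 0.22. Below, rose and fell are written of genes that passed in this brighter set, and standard errors and adjusted p-values come from it unless another source is named. A probe set can reach a mean of 200 through the arrays of 1 phase alone. Its place in the set then rests on the phase in which it is high. In a plain count, the lowest of the 3 callus signals lay above the highest of the 3 others for 1205 probe sets (13.8%) and the reverse held for 1098 (12.6%), and in the brighter set for 749 (18.5%) and 724 (17.9%).

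The count of calls leaned on single arrays. Without the 3-day array 20 probe sets of the brighter set were called higher and 55 lower, without the 1-week array 6 and 10, without the 4-week array 62 and 54, and without the 6-week array 27 and 23. Without the no-fracture array the counts were 300 and 168, and without the 2-week array 260 and 327. With the Gapdh ratio as a covariate 0 were called higher and 1 lower, and in a comparison of the callus phase with the no-fracture array alone 0 were called either way. All 455 kept the sign of their difference in each of these fits. Where the phases of a probe set do not overlap, leaving out 1 array or keeping only the no-fracture array cannot turn the sign. The kept signs in those fits are therefore no support of their own. Of the 455, 338 still had an unadjusted p under 0.05 beside the covariate, and 348 had one against the no-fracture array alone. Of all the calls within the gene lists described below, 1 granulocyte gene stayed called beside the covariate and 0 against the no-fracture array alone.

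The 6 times were not ordered alike among the called genes. Of the 234 probe sets called higher, 118 had their highest signal at 3 days, 83 at 1 week and 33 at 2 weeks, and 170 had their lowest signal at 6 weeks, 35 at 4 weeks and 28 without fracture. Of the 221 called lower, 110 had their lowest signal at 1 week, 77 at 3 days and 30 at 2 weeks, and 113 had their highest at 6 weeks, 69 without fracture and 39 at 4 weeks. Among all 4039 probe sets of the brighter set, 920 were lowest and 983 highest at 6 weeks, so this array held many extremes whatever the call. The commonest order among those called higher, seen in 35, fell from 3 days through 1 and 2 weeks to no fracture, 4 weeks and 6 weeks. At 6 weeks 202 of the 234 lay below their own no-fracture signal, 62 of them more than 2-fold, and 147 of the 221 lay above it, 21 of them more than 2-fold. At 4 weeks 124 of the 234 lay below it and 98 of the 221 above it. The 4- and 6-week arrays are also those with raised 3' to 5' ratios.

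**Figure D1:**
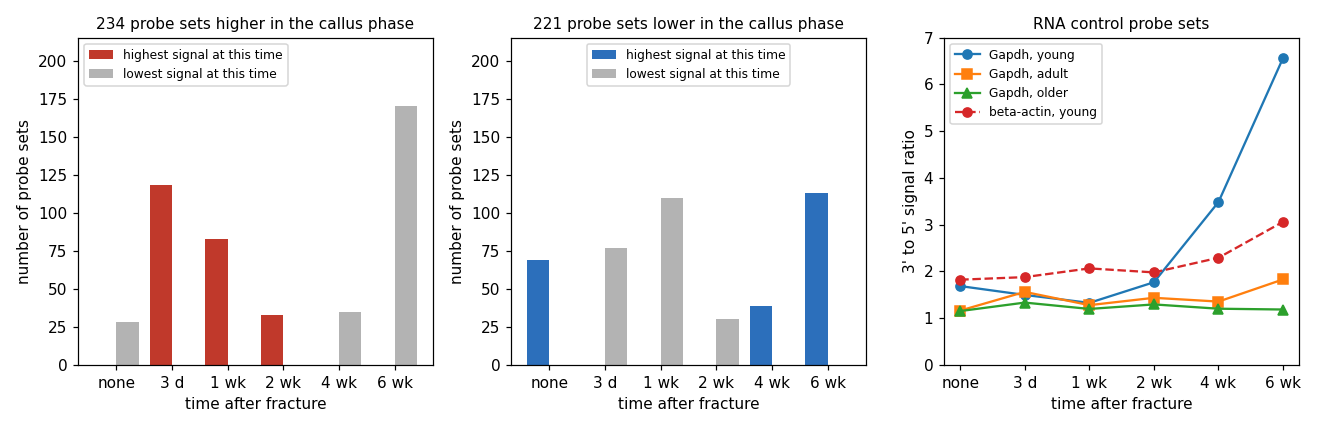
Number of probe sets with their highest (coloured) or lowest (grey) signal at each time among the 234 called higher and the 221 called lower in the callus phase of young rats, and the 3' to 5' signal ratio of control probe sets by time. Of the probe sets called higher, 170 were lowest at 6 weeks, the time at which the Gapdh ratio of young rats reached 6.57.

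The genes with the clearest difference were picked among brighter probe sets with 1 gene symbol and no overlap between phases. Those called over all probe sets came first, by the size of their difference. The other places were filled by the size of the moderated t over all probe sets. Lack of overlap was thus a condition of the choice. Copz2, a subunit of the COPI coat that carries vesicles from the Golgi back to the endoplasmic reticulum, had signals of 1956, 1911 and 1597 in the callus phase against 537, 577 and 520.2 without fracture and at 4 and 6 weeks. The 3 callus signals were 1597 or more and the 3 others 577 or less, and Copz2 rose by 1.74 on the log2 scale (SE 0.19, adjusted p = 0.00606), with an adjusted p of 0.0187 over all probe sets. Cspg4, the NG2 proteoglycan of pericytes and early mesenchymal cells, had signals of 425 at the start, 831, 861 and 935 from 3 days to 2 weeks, and 431 and 353 at the 2 late times and rose by 1.12 on the log2 scale (SE 0.19, adjusted p = 0.0181), with an adjusted p of 0.0454 over all probe sets. These 2 genes were the only ones of the 15 clearest higher genes that passed over all probe sets as well, and the next 13 passed in the brighter set only, except Bad, which passed in neither.

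Several of those 13 make or handle matrix. Papss2, which makes the sulphate donor for cartilage proteoglycans, had signals of 378 without fracture, 1535, 1089 and 1382 in the callus phase, and 481 and 444 at 4 and 6 weeks, and Sdc3, a heparan sulphate proteoglycan of the cell surface, 627, 565 and 881 in the callus phase against 128, 59.5 and 71.9 without fracture and at 4 and 6 weeks. Papss2 rose by 1.61 on the log2 scale (SE 0.22, adjusted p = 0.0122) and Sdc3 rose by 3.05 on the log2 scale (SE 0.35, adjusted p = 0.00646). Sdc3 was below 200 at all other times and passed that mean through the callus arrays alone. Bgn, the small proteoglycan biglycan, had signals of 5141 at the start, 7698, 7235 and 7546 from 3 days to 2 weeks, and 4211 and 3957 at the 2 late times. The widest difference was that of Myl4, the myosin light chain of embryonic muscle and atrium, whose signals were 12.1 without fracture, 395, 959 and 163 in the callus phase, and 16.9 and 13.4 at 4 and 6 weeks. It was below the floor of 20 on all 3 arrays of the other times, so the floor fixed their mean and left them no spread. Its mean signal of 260 passed 200 through the callus arrays alone. With these limits its difference was 4.30 on the log2 scale (SE 0.76, adjusted p = 0.02). Ggcx, which carboxylates osteocalcin and clotting factors, rose by 1.15 on the log2 scale (SE 0.20, adjusted p = 0.0194), and Lman1, a cargo receptor between the endoplasmic reticulum and the Golgi, rose by 1.85 on the log2 scale (SE 0.28, adjusted p = 0.0155). Like Sdc3, Lman1 was below 200 at all other times. Lxn, Slc25a1, C1qtnf6, Rab13, Plagl1 and Pth1r rose by 0.77 to 1.51.

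The 15 clearest lower genes included genes of eosinophils and B cells. Prg2, the major basic protein of eosinophil granules, had signals of 33.8, 25.2 and 35.6 in the callus phase against 2164, 615 and 1079.5 without fracture and at 4 and 6 weeks, and Cd72, a surface protein of B cells, 2218 at the start, 111, 94 and 229 from 3 days to 2 weeks, and 1777 and 1949 at the 2 late times. Prg2 fell by 5.18 on the log2 scale (SE 0.47, adjusted p = 0.00307) and Cd72 fell by 3.88 on the log2 scale (SE 0.33, adjusted p = 0.00307), and over all probe sets their adjusted p-values were 0.0475 and 0.0454. In both genes all 3 callus arrays lay more than 2-fold below every other array. Atp2a3, the calcium pump of blood cells and platelets, had signals of 4027 without fracture, 648, 439.7 and 736 in the callus phase, and 3026 and 3603 at 4 and 6 weeks. It fell by 2.57 on the log2 scale (SE 0.25, adjusted p = 0.00367). Ppp1r16b, a regulator of protein phosphatase found in lymphocytes and endothelium, had signals of 128, 99 and 126 in the callus phase against 674, 1224 and 1083 without fracture and at 4 and 6 weeks and fell by 3.05 on the log2 scale (SE 0.28, adjusted p = 0.00307). Map4k1, a kinase of blood-forming cells, fell by 1.44 on the log2 scale (SE 0.19, adjusted p = 0.00987), and Arpc5l, of the Arp2/3 complex, and Lrba, of vesicle traffic in lymphocytes, fell by 1.30 and 1.13. These 7 passed over all probe sets too. Syk, the kinase of B cell and Fc receptors, did so only in the brighter set: its signals were 1412 at the start, 362, 328 and 556 from 3 days to 2 weeks, and 1623 and 1837 at the 2 late times, and it fell by 2.00 on the log2 scale (SE 0.25, adjusted p = 0.00922). The others by this rule were Ngfr, Gsta1, Ccdc88c, Nap1l1 and Acaa2, which fell by 0.72 to 2.18, and Cnppd1 and Rap1b, which did not pass.

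**Figure D2:**
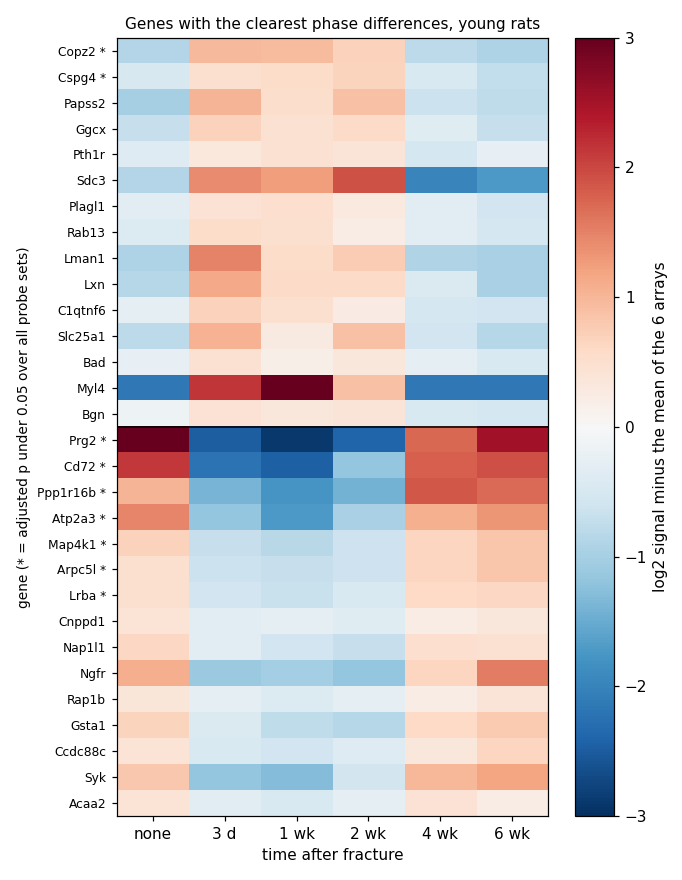
Log2 signal minus the mean of the 6 young arrays for the 15 clearest higher and 15 clearest lower genes, by time after fracture, with a colour scale cut at 3 and stars for genes called over all 8740 probe sets. Copz2 and Cspg4 carry stars among the higher genes, and Prg2, Cd72, Ppp1r16b, Atp2a3, Map4k1, Arpc5l and Lrba among the lower ones.

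The fibrous matrix list holds collagens, proteoglycans and the enzymes that modify them. Of its 20 measured members, all in the brighter set, 10 rose and 0 fell, and 15 had all callus signals above all others. The median difference was 0.91 on the log2 scale, against 0.00 over all probe sets and -0.02 in the brighter set. Of the whole brighter set 5.79% were called higher and 18.5% had all callus signals above all others. Lox, the enzyme that cross-links collagen and elastin, had signals of 2527 without fracture, 11077 at 3 days, 9976 at 1 week and 7349.7 at 2 weeks, then 813 at 4 weeks and 194 at 6 weeks. It was high throughout the callus phase and rose by 3.66 on the log2 scale (SE 0.76, adjusted p = 0.0289), and at 6 weeks it stood far below its no-fracture level. Vcan, the large proteoglycan versican of loose matrix, had signals of 422 without fracture, 1121, 1343 and 734 in the callus phase, and 239.5 and 153 at 4 and 6 weeks and rose by 2.05 on the log2 scale (SE 0.38, adjusted p = 0.0239). P4ha1, which hydroxylates collagen prolines, had signals of 4228, 2956 and 2549 in the callus phase against 1377, 941 and 659 without fracture and at 4 and 6 weeks and rose by 1.74 on the log2 scale (SE 0.31, adjusted p = 0.0207). Tnc, the wound glycoprotein tenascin C, had signals of 1164 at the start, 1681, 1843 and 1776 from 3 days to 2 weeks, and 674 and 415 at the 2 late times and rose by 1.36 on the log2 scale (SE 0.35, adjusted p = 0.0421). Col5a1, Fn1, S100a4, Plod1, Timp1 and Bgn made up the rest, with rises of 0.76 to 1.01. Col3a1, the main collagen of early wounds, had signals of 12584 without fracture, 18695, 17117 and 15261 in the callus phase, and 11878 and 10400 at 4 and 6 weeks, with a difference of 0.55 on the log2 scale (SE 0.17, adjusted p = 0.0646), so its groups did not overlap but the test was not passed. Of the 20 members, 16 had their lowest signal at 6 weeks, and the median difference from the no-fracture array alone was 0.61. Without the 3-day or the 1-week array 0 members were called, and without the 4- or the 6-week array 1.

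Cartilage genes peaked at 1 or 2 weeks, and few passed the test. Of 9 measured members 7 were in the brighter set, where 5.79% were called higher, 2 rose and 0 fell, and the median difference was 0.78. Comp, an oligomeric cartilage protein, had signals of 83.8 without fracture, 528 at 3 days, 1806 at 1 week and 1499.8 at 2 weeks, then 302 at 4 weeks and 121 at 6 weeks and rose by 2.95 on the log2 scale (SE 0.56, adjusted p = 0.025). Pth1r, the receptor for parathyroid hormone and its related peptide, had signals of 2533, 2818 and 2658 in the callus phase against 1565, 1424 and 1712 without fracture and at 4 and 6 weeks and rose by 0.77 on the log2 scale (SE 0.19, adjusted p = 0.0388). Acan, the proteoglycan of cartilage, had signals of 521 at the start, 1372, 2412 and 1082 from 3 days to 2 weeks, and 371 and 22.3 at the 2 late times, and the phases did not overlap. Its difference was large but uneven across times, at 3.23 on the log2 scale (SE 1.02, adjusted p = 0.0745). Col2a1, the main collagen of cartilage, had signals of 839 without fracture, 773 at 3 days, 11491 at 1 week and 15004 at 2 weeks, then 3765 at 4 weeks and 128 at 6 weeks. Col10a1, of hypertrophic cartilage, had signals of 159 without fracture, 76.3 at 3 days, 1759 at 1 week and 5009 at 2 weeks, then 815 at 4 weeks and 9.9 at 6 weeks. Neither collagen was raised at 3 days, both stood far above the start at 1 and 2 weeks and still above it at 4 weeks, and the phases overlapped. Their differences were 2.79 on the log2 scale (SE 1.35, adjusted p = 0.193) and 2.67 on the log2 scale (SE 1.64, adjusted p = 0.298). No cartilage gene was highest at 3 days, 5 were highest at 1 week and 4 at 2 weeks, and without the 1-week or the 6-week array 0 were called.

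Bone matrix genes peaked at different times, 6 of 14 at 2 weeks and 3 without fracture. Of the 14 measured members 12 were in the brighter set, where 5.79% were called higher, and 2 rose, Serpinh1 and Pdpn. Serpinh1, the collagen chaperone HSP47, had signals of 5489 without fracture, 12094, 13045 and 10499 in the callus phase, and 4519 and 1548 at 4 and 6 weeks and rose by 1.81 on the log2 scale (SE 0.42, adjusted p = 0.0352). Pdpn, podoplanin of young osteocytes and fibroblasts, had signals of 1153, 757 and 731 in the callus phase against 278, 468 and 311 without fracture and at 4 and 6 weeks and rose by 1.33 on the log2 scale (SE 0.28, adjusted p = 0.0289). The 2 chains of type I collagen were at their highest outside the callus phase: Col1a1 had signals of 35960 without fracture, 27788 at 3 days, 18093 at 1 week and 29888 at 2 weeks, then 27757 at 4 weeks and 33307 at 6 weeks. Col1a2 had signals of 23968 at the start, 22311, 15119 and 22745 from 3 days to 2 weeks, and 22571 and 27860 at the 2 late times. Bglap, osteocalcin of mature osteoblasts, had signals of 24622 without fracture, 9691, 11944 and 23400 in the callus phase, and 23631 and 23623 at 4 and 6 weeks, so the callus arrays of 3 days and 1 week lay well below the rest, with a difference of -0.78 on the log2 scale (SE 0.30, adjusted p = 0.113). Spp1, osteopontin, reached 19625 at 2 weeks from 11577 without fracture, and Ibsp, bone sialoprotein, 5598 from 1919. The list's median difference was 0.27 and 0.20 against the no-fracture array alone. Without the 3-day or the 1-week array 0 members were called.

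Of 9 measured osteoclast genes 5 were highest at 2 weeks, 2 at 1 week and 2 at 6 weeks. Of the 9 members 5 were in the brighter set and 0 were called. Ctsk, the collagen-cutting protease of osteoclasts, had signals of 6625 without fracture, 7028 at 3 days, 14051 at 1 week and 18875 at 2 weeks, then 12572 at 4 weeks and 8733 at 6 weeks. Acp5, their acid phosphatase, had signals of 4479, 11208 and 18449 in the callus phase against 6308, 11224 and 7937 without fracture and at 4 and 6 weeks. The 2-week array was the highest and the start among the lowest in both, and the phases overlapped. Clcn7, the chloride channel of the resorbing membrane, had dimmer signals of 53.7 at the start, 211, 261 and 273 from 3 days to 2 weeks, and 22.7 and 37.7 at the 2 late times and an adjusted p of 0.0672 over all probe sets. Among 23 proteases and inhibitors 18 were in the brighter set, where 5.79% were called higher, 7 rose and 0 fell, with a median of 0.67. Mmp14, which activates other metalloproteinases at the cell surface, had signals of 4467 without fracture, 7971, 6944 and 7727 in the callus phase, and 994 and 753 at 4 and 6 weeks and rose by 2.33 on the log2 scale (SE 0.57, adjusted p = 0.0387). Plat and Plau, the activators of plasminogen, rose by 1.55 and 1.15. Mmp23, Timp2, Ctsd and Timp1 rose by 0.93 to 1.18. Mmp13, the collagenase of hypertrophic cartilage and osteoblasts, had signals of 3775, 8871 and 12136 in the callus phase against 3485, 8591 and 7699.8 without fracture and at 4 and 6 weeks and did not separate the phases. Mmp8, the collagenase of neutrophils, was dimmer and ran the other way with signals of 280.1 at the start, 162, 31.8 and 68.3 from 3 days to 2 weeks, and 258 and 351 at the 2 late times. The protease calls numbered 0 without any 1 of the 3-day, 1-week, 4-week and 6-week arrays.

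**Figure D3:**
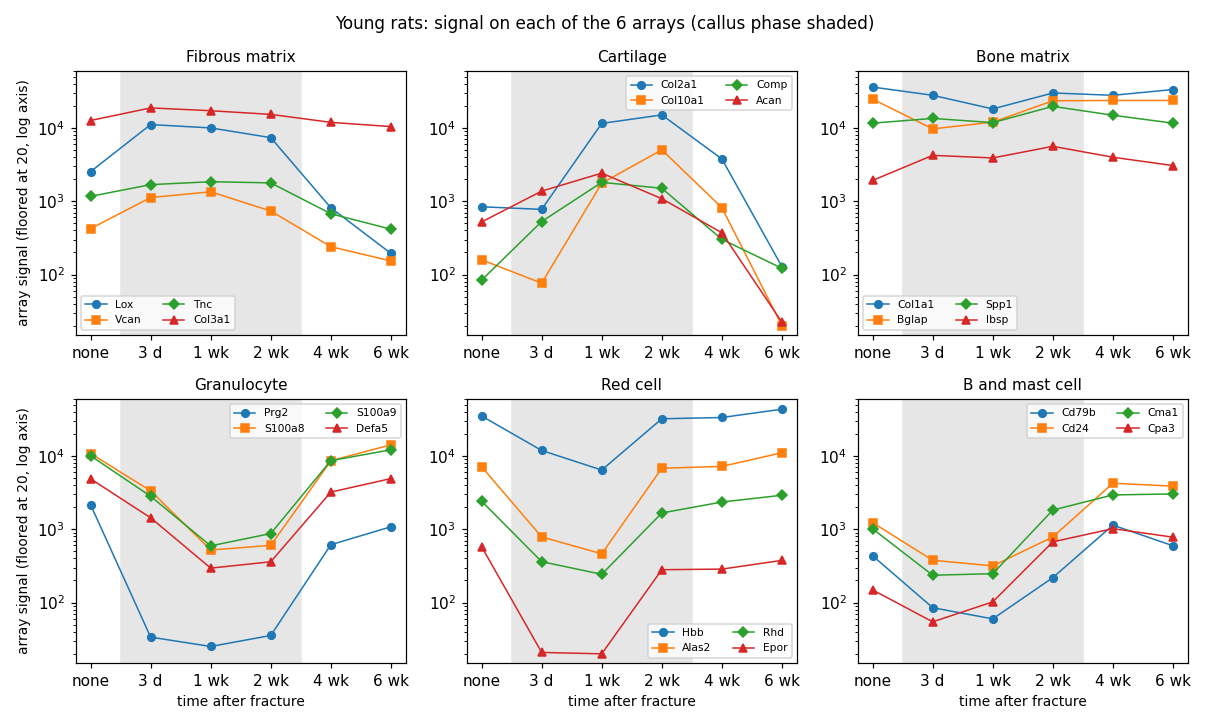
Signals of 24 genes on the 6 young arrays, on a log axis with the callus phase shaded and signals below 20 drawn at 20. Fibrous genes were high from 3 days, cartilage collagens from 1 week, and granulocyte and red cell genes were low at 3 days and 1 week.

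The secretory list, of proteins that fold, modify and carry secreted proteins, stood higher in the callus phase in nearly all of its members. In the brighter set 5.79% were called higher and 18.5% had all callus signals above all others. All 25 measured members of the list were in that set, 10 rose and 0 fell, 23 had all callus signals above all others, and the median difference was 0.81. Its highest signal came at 3 days in 16 members and at 1 week in 9. Sec61a1, the channel through which new proteins enter the endoplasmic reticulum, had signals of 588 without fracture, 1757 at 3 days, 983 at 1 week and 1087 at 2 weeks, then 401 at 4 weeks and 285 at 6 weeks and rose by 1.60 on the log2 scale (SE 0.32, adjusted p = 0.0278). Pdia3, a disulphide isomerase, had signals of 2309.5 without fracture, 4092, 5070.1 and 2697 in the callus phase, and 1579 and 979.5 at 4 and 6 weeks and rose by 1.32 on the log2 scale (SE 0.35, adjusted p = 0.0467). Pdia4, of the same family, had signals of 830.4, 617 and 510.4 in the callus phase against 214, 324 and 254 without fracture and at 4 and 6 weeks and rose by 1.30 on the log2 scale (SE 0.26, adjusted p = 0.0265). The other members that rose were Lman1, Serpinh1, P4ha1, Sec61b, P4hb, Copb1 and Ssr4, by 0.79 to 1.85, and 1 of the 3 brighter probe sets of Ssr4 went the other way. The median against the no-fracture array alone was 0.75. Without the 3-day, 1-week, 4-week and 6-week array in turn, 1, 0, 3 and 2 members were called.

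In 4 genes of this list the promoter holds an element that the contrast did not use. The endoplasmic reticulum stress element is the letters CCAAT and CCACG with 9 bases between them, and it is known from genes of the unfolded protein response. In the RefSeq promoters of the GRCr8 assembly, from 250 bases before to 50 after the start and searched on both strands, it stood in 4 of the 22 secretory promoters found (18.2%), in 7 of 3879 promoters of genes on the array (0.18%) and in 21 of all 27457 promoters (0.0765%). In the other 25 lists 0 promoters held it. The list was chosen to hold chaperones of the kind the element is known from, so its share says nothing about the contrast. The parts of the 4 promoters around the element follow, each read along its gene's strand with the element in capitals.
Calr: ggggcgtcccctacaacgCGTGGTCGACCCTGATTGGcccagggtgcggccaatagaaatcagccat
Canx: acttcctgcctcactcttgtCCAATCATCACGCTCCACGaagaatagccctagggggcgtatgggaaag
Hsp90b1: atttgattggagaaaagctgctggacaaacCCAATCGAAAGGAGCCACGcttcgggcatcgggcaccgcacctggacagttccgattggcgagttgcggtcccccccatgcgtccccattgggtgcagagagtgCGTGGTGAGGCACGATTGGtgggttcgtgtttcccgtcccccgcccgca
Hspa5: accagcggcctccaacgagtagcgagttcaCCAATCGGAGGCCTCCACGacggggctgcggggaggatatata
They lie at chr19:40213117-40213183 for Calr and chr3:38452943-38453015 for Hspa5 on the plus strand, and at chr10:35158039-35158107 for Canx and chr7:23012317-23012499 for Hsp90b1 on the minus strand. In Calr the element reads on the reverse strand, and Hsp90b1 holds 1 on each strand. Of these 4 genes 0 passed the test. Hspa5, the chaperone BiP, had signals of 2511 at the start, 3978, 4449 and 2516 from 3 days to 2 weeks, and 1901 and 1951 at the 2 late times. Hsp90b1, the chaperone GRP94, had signals of 1666 without fracture, 2467, 1709 and 2272 in the callus phase, and 1359.7 and 1226 at 4 and 6 weeks, and Calr, the calcium-binding chaperone calreticulin, 7797, 8081 and 6897 in the callus phase against 5996, 4099.8 and 4127 without fracture and at 4 and 6 weeks. In these 3 the callus signals lay above all others, with differences of 0.75, 0.60 and 0.70. Canx, the membrane chaperone calnexin, had signals of 1774 at the start, 1324, 3717 and 2218 from 3 days to 2 weeks, and 2391 and 2269.6 at the 2 late times, with 3 days the lowest of the 6 arrays. For Hspa5, 1 of its 2 brighter probe sets went the other way. A match to the letters is a description and not a site of binding.

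Growth factors rose in part. Of 40 measured ligands, binding proteins and receptors 23 were in the brighter set, where 5.79% were called higher, 5 rose and 0 fell, and the median difference was 0.50. Among the ligands, Tgfb1, which draws matrix-making cells, had signals of 705 without fracture, 1579, 1132 and 1318 in the callus phase, and 517 and 317 at 4 and 6 weeks and rose by 1.45 on the log2 scale (SE 0.31, adjusted p = 0.0295). Tgfb3 had signals of 1086, 1261 and 773 in the callus phase against 511, 406 and 239.8 without fracture and at 4 and 6 weeks and rose by 1.47 on the log2 scale (SE 0.32, adjusted p = 0.0312). Bmp3, a member of the bone morphogenetic protein family that opposes the others, had signals of 153 at the start, 342, 283 and 346 from 3 days to 2 weeks, and 184 and 121 at the 2 late times and rose by 1.10 on the log2 scale (SE 0.28, adjusted p = 0.0429). Igfbp5, which binds insulin-like growth factors in bone, had signals of 231 without fracture, 387, 607 and 667 in the callus phase, and 81.3 and 134 at 4 and 6 weeks and rose by 1.99 on the log2 scale (SE 0.40, adjusted p = 0.0278). The receptor Igf2r rose by 1.33, while the ligands Igf1 and Igf2 were highest at 1 week with signals of 4607 and 4461 and did not pass. For Igf2, 2 of its 3 brighter probe sets went the other way. Of these 40 genes 15 were highest at 1 week and 12 lowest at 6 weeks, and without the 3-day, 1-week, 4-week or 6-week array 0 were called.

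Inflammatory genes took no common course, with 7 of 23 highest at 3 days and 8 at 6 weeks. Of the 23 measured cytokines, chemokines and enzymes 10 were in the brighter set, 0 were called and the median difference was -0.01. Il6 and Ptgs2 were singled out for their early peak after their values were seen. Il6, an early signal of injury, had signals of 11.4 without fracture, 626 at 3 days, 69.2 at 1 week and 40.5 at 2 weeks, then 10 at 4 weeks and 14.4 at 6 weeks. Ptgs2, the inducible cyclooxygenase, had signals of 3.4 without fracture, 835 at 3 days, 268 at 1 week and 36.6 at 2 weeks, then 12.7 at 4 weeks and 7.2 at 6 weeks. Both were dim outside the callus phase, far above the rest at 3 days and much lower again by 2 weeks, and neither was in the brighter set. Over all probe sets Il6 had a difference of 2.59 (SE 1.09, adjusted p = 0.276) and Ptgs2 of 3.33 (SE 1.20, adjusted p = 0.224). Ccl2, which attracts monocytes, had signals of 987, 747 and 376 in the callus phase against 115, 331 and 333 without fracture and at 4 and 6 weeks, with a difference of 1.48 on the log2 scale (SE 0.48, adjusted p = 0.079). Among 25 immediate early and stress genes, 20 of them in the brighter set, 2 rose and 0 fell. Over the brighter set 5.79% were called higher. Fos had signals of 1032 at the start, 2291, 1690.4 and 1652 from 3 days to 2 weeks, and 839 and 971 at the 2 late times. It rose by 0.98 on the log2 scale (SE 0.22, adjusted p = 0.0333). Klf4 had signals of 626 without fracture, 1293, 1436 and 1071 in the callus phase, and 815 and 691 at 4 and 6 weeks. It rose by 0.83 on the log2 scale (SE 0.21, adjusted p = 0.0427). Among 15 genes of sterol synthesis, 10 of them in the brighter set, 2 rose and 0 fell with a median of 0.68. Insig1, a sensor of the pathway, had signals of 1036, 1427 and 781 in the callus phase against 417, 456 and 228 without fracture and at 4 and 6 weeks and rose by 1.58 on the log2 scale (SE 0.33, adjusted p = 0.0289), and Cyp51, a sterol demethylase, had signals of 369.9 at the start, 1046, 748 and 489 from 3 days to 2 weeks, and 231 and 217 at the 2 late times and rose by 1.46 on the log2 scale (SE 0.33, adjusted p = 0.0333). The calls of these lists were 0 without the 3-day, 1-week, 4-week or 6-week array.

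**Figure D4:**
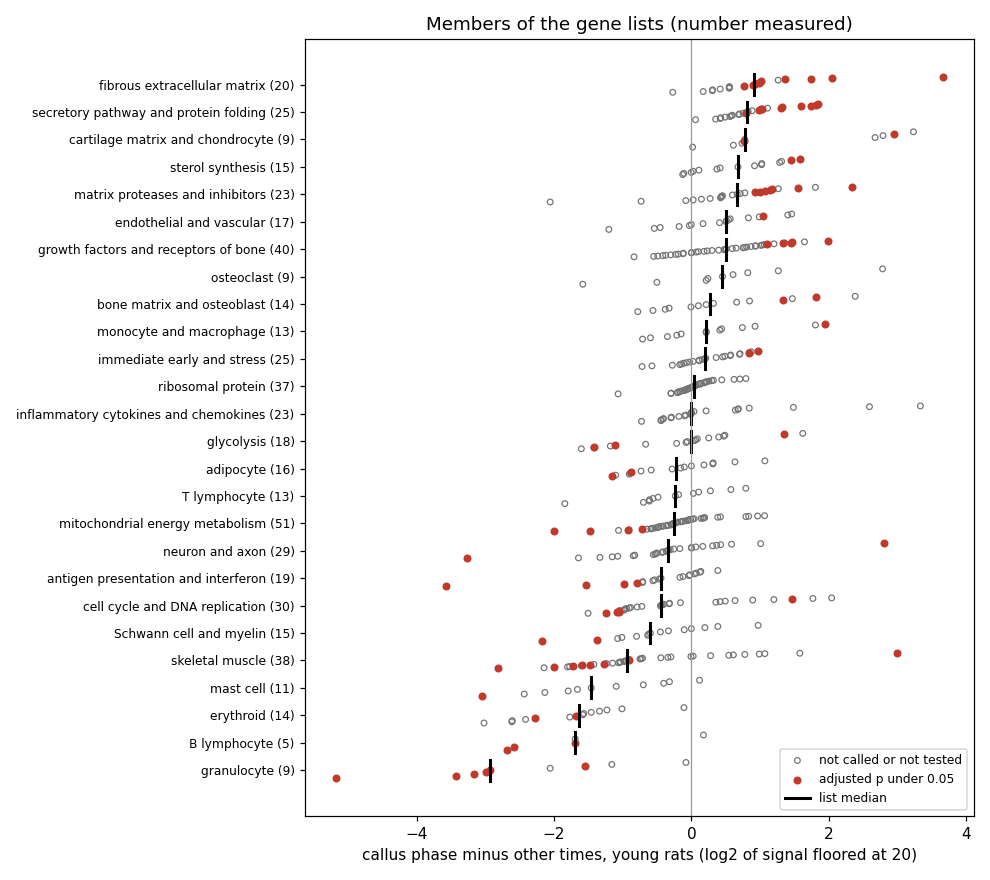
Callus phase minus other times on the log2 scale for each measured member of 26 gene lists in young rats, with the number measured in brackets, the list median as a bar and members called in the brighter set in red. Fibrous matrix, secretory and cartilage lists had the highest medians, at 0.91, 0.81 and 0.78, and granulocyte and B lymphocyte lists the lowest, at -2.94 and -1.70.

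Granulocyte genes had the lowest median of the 26 lists. Of 9 measured members all 6 in the brighter set fell, 8 had all callus signals below all others, and the median difference was -2.94. Of the whole brighter set 5.47% were called lower, and of all probe sets 12.6% had all callus signals below all others. S100a8, one chain of calprotectin of neutrophils, had signals of 10761 without fracture, 3340.4 at 3 days, 521 at 1 week and 602 at 2 weeks, then 8570.4 at 4 weeks and 14170 at 6 weeks and fell by 3.43 on the log2 scale (SE 0.63, adjusted p = 0.0226). Its partner S100a9 had signals of 10037 without fracture, 2811, 594 and 873 in the callus phase, and 8633 and 12089 at 4 and 6 weeks and fell by 3.16 on the log2 scale (SE 0.50, adjusted p = 0.0164). Defa5, a defensin, had signals of 1432, 295 and 360 in the callus phase against 4869, 3209 and 4906 without fracture and at 4 and 6 weeks and fell by 2.99 on the log2 scale (SE 0.54, adjusted p = 0.0207). RatNP-3b, another defensin, had signals of 22100 at the start, 7196, 1318 and 1152 from 3 days to 2 weeks, and 13080 and 17025 at the 2 late times and fell by 2.94 on the log2 scale (SE 0.62, adjusted p = 0.0295). In these genes the fall was partial at 3 days and deepest at 1 and 2 weeks, and signals at 6 weeks were near those without fracture. Prg2, the eosinophil gene, was already down to 33.8 at 3 days. Lcn2, a neutrophil granule protein that other cells also make, fell by 1.55 on the log2 scale (SE 0.32, adjusted p = 0.0289). The median against the no-fracture array alone was -3.15. Without the 1-week or the 6-week array 1 member was called.

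Red cell genes had their lowest signal at 3 days in 5 members and at 1 week in 9. All 14 were in the brighter set, 2 fell, 9 had all callus signals below all others and the median difference was -1.63. In the whole brighter set 5.47% were called lower and 17.9% had all callus signals below all others. Hbb, beta globin, had signals of 35003 without fracture, 11862 at 3 days, 6409.7 at 1 week and 32060 at 2 weeks, then 33372 at 4 weeks and 43307 at 6 weeks. Alas2, the first enzyme of haem synthesis in red cells, had signals of 7118 without fracture, 786, 462 and 6788 in the callus phase, and 7189.9 and 11035 at 4 and 6 weeks, and Epor, the erythropoietin receptor, 20.9, 12.7 and 281 in the callus phase against 580, 286 and 376 without fracture and at 4 and 6 weeks. The 3-day and 1-week arrays were low and the 2-week array was near the other times, so the spread within the phase was wide and these 3 did not pass. Rhd, a blood group protein of the red cell membrane, had signals of 2420 at the start, 361, 243 and 1666 from 3 days to 2 weeks, and 2349 and 2906 at the 2 late times and fell by 2.27 on the log2 scale (SE 0.61, adjusted p = 0.047). Epb41, of the membrane skeleton, had signals of 2321 without fracture, 301, 319 and 676 in the callus phase, and 766 and 1196 at 4 and 6 weeks and fell by 1.68 on the log2 scale (SE 0.44, adjusted p = 0.0461). In both the 2-week signal still lay below those of the other times. Without the 2-week array 12 of the 14 were called lower, and without any other array 0. In Slc4a1, the anion exchanger, the 2-week signal of 3204 was the highest of the 6.

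B cell and mast cell genes were low in the callus phase and highest late. Of 5 measured B cell genes 4 were in the brighter set, where 5.47% were called lower, 3 fell and the median difference was -1.70. Cd79b, a chain of the B cell receptor, had signals of 435 without fracture, 85.1 at 3 days, 59.9 at 1 week and 219 at 2 weeks, then 1137 at 4 weeks and 595 at 6 weeks and fell by 2.68 on the log2 scale (SE 0.52, adjusted p = 0.0254). Cd24, of early B cells and some other marrow cells, had signals of 377, 316 and 785 in the callus phase against 1229.8, 4237 and 3864 without fracture and at 4 and 6 weeks and fell by 2.58 on the log2 scale (SE 0.51, adjusted p = 0.0263), and Cd37 fell by 1.70 on the log2 scale (SE 0.31, adjusted p = 0.0235). At 4 weeks Cd79b and Cd24 stood above their no-fracture signals. Of 11 mast cell genes 5 were in the brighter set and 1 fell, Ms4a2, a chain of the IgE receptor, with signals of 228 at the start, 37.5, 18.1 and 123 from 3 days to 2 weeks, and 504 and 458 at the 2 late times. It fell by 3.05 on the log2 scale (SE 0.70, adjusted p = 0.0345). Cma1, mast cell chymase, had signals of 1013 without fracture, 236, 248 and 1827 in the callus phase, and 2936 and 3027 at 4 and 6 weeks, and Cpa3, their carboxypeptidase, 54.6, 102 and 673 in the callus phase against 149, 1018 and 779 without fracture and at 4 and 6 weeks. In both the 2-week array already stood above the no-fracture array, and 7 of the 11 were highest at 4 weeks. The mast cell median was -1.46 in the pooled contrast and -0.15 against the no-fracture array alone. Without the 3-day, 1-week, 4-week or 6-week array 0 genes of either list were called, and without the 2-week array 4 of each were called lower.

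Other immune lists moved less. Of 19 genes of antigen presentation and the interferon response 17 were in the brighter set, where 5.47% were called lower, and 4 fell, with a median of -0.44. Rsad2, an antiviral protein induced by interferon, had signals of 7886 at the start, 224, 305 and 3548 from 3 days to 2 weeks, and 5671 and 9216 at the 2 late times and fell by 3.58 on the log2 scale (SE 0.89, adjusted p = 0.0392). Irf7, a factor that drives interferon genes, had signals of 917 without fracture, 376, 609 and 521 in the callus phase, and 1772 and 1753 at 4 and 6 weeks and fell by 1.53 on the log2 scale (SE 0.31, adjusted p = 0.0286), and Psmb9 and Tap1, of peptide supply for class I molecules, fell by 0.98 and 0.79. The median against the no-fracture array alone was 0.15, and 7 of the 19 were highest at 4 weeks. Of 13 monocyte and macrophage genes 10 were in the brighter set, where 5.79% were called higher, and 1 rose. Lgals3, a galectin of macrophages and chondrocytes, had signals of 3663, 4269.9 and 1517 in the callus phase against 559, 904 and 833 without fracture and at 4 and 6 weeks. It rose by 1.94 on the log2 scale (SE 0.39, adjusted p = 0.0278), while Lyz2, lysozyme of myeloid cells, had signals of 10276 at the start, 11472, 7968 and 8044 from 3 days to 2 weeks, and 9310.3 and 11970 at the 2 late times and did not separate the phases. Among 13 T cell genes 0 were called, and 4 of them were in the brighter set. The calls of these lists were 0 without the 3-day, 1-week, 4-week or 6-week array.

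Muscle genes were lowest at 3 days. Of 38 measured members 34 were in the brighter set, 7 fell and 1 rose, 22 had all callus signals below all others and the median difference was -0.94. The brighter set had 5.47% called lower and 5.79% higher, and 12.6% of all probe sets had all callus signals below all others. Myl2, the light chain of slow and cardiac myosin, had signals of 9604 without fracture, 327 at 3 days, 1219 at 1 week and 2814 at 2 weeks, then 7477 at 4 weeks and 5494 at 6 weeks and fell by 2.82 on the log2 scale (SE 0.66, adjusted p = 0.0352). Myh7, the slow heavy chain, had signals of 11918 without fracture, 1349, 4843 and 4919.8 in the callus phase, and 11019 and 8889 at 4 and 6 weeks and fell by 1.73 on the log2 scale (SE 0.46, adjusted p = 0.0467). Pygm, muscle glycogen phosphorylase, had signals of 1423, 3998 and 2916 in the callus phase against 7201, 6247 and 10209 without fracture and at 4 and 6 weeks and fell by 1.60 on the log2 scale (SE 0.37, adjusted p = 0.0352). Acta1, skeletal actin, had signals of 30585 at the start, 12017, 19983 and 21302 from 3 days to 2 weeks, and 25271 and 31391 at the 2 late times, with a difference of -0.75 on the log2 scale (SE 0.23, adjusted p = 0.0709). The member that rose was Myog, a factor that turns myoblasts into fibres, with signals of 55.5 without fracture, 1099.9, 380.2 and 134 in the callus phase, and 47.5 and 41.9 at 4 and 6 weeks. It was highest at 3 days and rose by 3.00 on the log2 scale (SE 0.71, adjusted p = 0.0357). Chrna1, an acetylcholine receptor chain that spreads over denervated or regenerating fibres, went with it, with signals of 933, 557 and 283 in the callus phase against 104, 222 and 238 without fracture and at 4 and 6 weeks, with a difference of 1.58 on the log2 scale (SE 0.47, adjusted p = 0.0643). The lowest signal came at 3 days in 27 of the 38. Without the 2-week array 16 were called lower, without the no-fracture array 2, without the 3-day array 1 and without the 1-week, 4-week or 6-week array 0.

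Of 51 measured mitochondrial genes 49 were in the brighter set, 4 fell and 0 rose, a share near the 5.47% called lower there, and the median difference was -0.26. Of the 4, 2 were also on the muscle list. Without the 3-day, 1-week, 4-week or 6-week array 0 were called, and without the no-fracture array 2 were called higher and 0 lower. Ckmt2, the mitochondrial creatine kinase of muscle, had signals of 3627 at the start, 321, 749.7 and 1303 from 3 days to 2 weeks, and 2182 and 2501 at the 2 late times and fell by 1.99 on the log2 scale (SE 0.46, adjusted p = 0.0352). Cox8b, a muscle form of a respiratory chain subunit, had signals of 4132 without fracture, 693, 1444 and 1571 in the callus phase, and 2604 and 3173 at 4 and 6 weeks and fell by 1.48 on the log2 scale (SE 0.34, adjusted p = 0.0348). Cpt1b and Acaa2, of fatty acid oxidation, fell by 0.92 and 0.72. Cox4i1, a subunit made in most tissues, had signals of 10254, 9995 and 12769 in the callus phase against 17689, 13339 and 16742 without fracture and at 4 and 6 weeks, with a difference of -0.53 on the log2 scale (SE 0.19, adjusted p = 0.0934). Of 18 glycolysis genes 16 were in the brighter set, 1 rose and 2 fell. Slc2a1, the glucose transporter of most cells, rose with signals of 219.6 at the start, 582, 956 and 432 from 3 days to 2 weeks, and 288 and 229.6 at the 2 late times. Ldhb, a lactate dehydrogenase chain of oxidative tissue, and Pfkm, the muscle phosphofructokinase, fell by 1.41 and 1.11, and 1 of the 2 brighter probe sets of Pfkm went the other way. Of 16 adipocyte genes 10 were in the brighter set and 2 fell. Slc2a4, the insulin-regulated glucose transporter of muscle and fat, and Lipe, a lipase, fell by 1.16 and 0.88. Of 17 endothelial and vascular genes 13 were in the brighter set and 1 rose. Acta2, the actin of smooth muscle and myofibroblasts, had signals of 2536 without fracture, 4306, 3679 and 3455 in the callus phase, and 1711 and 1465 at 4 and 6 weeks. It rose by 1.04 on the log2 scale (SE 0.25, adjusted p = 0.0371). Over the brighter set 5.79% were called higher and 5.47% lower. Without the 3-day, 1-week, 4-week or 6-week array 0 glycolysis, adipocyte or endothelial genes were called. The muscle list's summed signal was 81504 at 3 days, 155800 at 1 week and 163430 at 2 weeks against 203430 to 267700 on the other arrays, and its part in the calls of these lists was not tested.

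Most genes of DNA replication and division that passed the test fell. Of 30 measured members 24 were in the brighter set, 4 fell and 1 rose, the median difference was -0.45, and 16 had their lowest signal at 1 week. The shares called in that set were 5.47% lower and 5.79% higher. Stmn1, a microtubule regulator of dividing cells, had signals of 1448, 1010.2 and 1430.2 in the callus phase against 2453, 3300 and 3392 without fracture and at 4 and 6 weeks and fell by 1.24 on the log2 scale (SE 0.24, adjusted p = 0.025). Pcna, the clamp of DNA polymerase, had signals of 4218 at the start, 1779, 2027 and 2991 from 3 days to 2 weeks, and 4684 and 5268 at the 2 late times and fell by 1.09 on the log2 scale (SE 0.24, adjusted p = 0.0331), and Top2a, topoisomerase of dividing cells, had signals of 2846 without fracture, 1559.6, 1120 and 1775 in the callus phase, and 3041 and 3168 at 4 and 6 weeks and fell by 1.05 on the log2 scale (SE 0.23, adjusted p = 0.0319). Nap1l1, a histone chaperone, fell by 1.05, and 1 of its 3 brighter probe sets went the other way. The member that rose was Ccnd1, the cyclin of the start of the cycle, with signals of 1235, 1052 and 723 in the callus phase against 412, 352 and 312 without fracture and at 4 and 6 weeks. It rose by 1.46 on the log2 scale (SE 0.25, adjusted p = 0.0181), and 1 of its 4 brighter probe sets went the other way. Marrow cells divide too, and the granulocyte list's summed signal was 15670 at 3 days, 3294 at 1 week and 3541 at 2 weeks against 35342 to 51842 at the other times. Its part in this result was not tested. Among 37 ribosomal protein genes 0 were called and the median was 0.04. Cell cycle calls were 0 and 1 for higher and lower without the 3-day array, and 0 either way without the 1-week, 4-week or 6-week array.

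The study set out to follow nerve-related genes, so these were read in the young arrays too. Ngfr, the low-affinity neurotrophin receptor of Schwann cells and marrow stroma, had signals of 1010.3 without fracture, 222 at 3 days, 236 at 1 week and 214 at 2 weeks, then 744 at 4 weeks and 1388 at 6 weeks. All 3 callus signals lay far below the others, and it fell by 2.18 on the log2 scale (SE 0.25, adjusted p = 0.00646). Cryab, a small heat shock protein of muscle and Schwann cells, had signals of 10453 at the start, 3138, 3123 and 3367 from 3 days to 2 weeks, and 7774 and 7079 at the 2 late times and fell by 1.37 on the log2 scale (SE 0.20, adjusted p = 0.0155). These were the 2 called of 15 Schwann cell and myelin genes, 7 of them in the brighter set, whose median was -0.60. Among 29 neuron and axon genes Gal, the neuropeptide galanin, rose, and Nrgn, neurogranin, a calmodulin-binding protein that platelets also carry, fell. Gal had signals of 51.6 without fracture, 624, 906 and 650.1 in the callus phase, and 305 and 67.6 at 4 and 6 weeks and rose by 2.81 on the log2 scale (SE 0.60, adjusted p = 0.0298). Nrgn had signals of 259, 13.1 and 69.3 in the callus phase against 1514, 320.4 and 667 without fracture and at 4 and 6 weeks and fell by 3.27 on the log2 scale (SE 0.89, adjusted p = 0.0488). The median of that list was -0.34, and 10 of its members were in the brighter set, where 5.79% were called higher and 5.47% lower. Of 33 probe sets that the study lists as nerve-related and up-regulated at all ages, 23 were in the brighter set, 7 rose and 0 fell, with a median of 0.96. Of 17 it lists as down-regulated, 10 were in the brighter set and 0 were called, with a median of -0.56. The study chose both lists on arrays that include these, so the directions are no independent evidence. Slc6a6, the taurine transporter, had signals of 181 at the start, 477, 764 and 497 from 3 days to 2 weeks, and 48.4 and 11.6 at the 2 late times and rose by 3.34. In the Schwann cell list 1 gene was called without the 1-week array, and Gal was not called without the 3-day, 1-week or 6-week array. The neuron and axon list had 0 lower calls without the no-fracture, 1-week, 4-week or 6-week array, with quantile normalization and with scaling to the median.

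Young rats were then set against the other ages. In a model over all 18 arrays with a term for each time, 0 of 8740 probe sets (0%) differed in the phase contrast between young and adult rats and 0 (0%) between young and older rats by limma. At an unadjusted p under 0.05 there were 695 and 569, with a higher difference in young rats in 442 and 378, and the lowest adjusted p was 0.0952 and 0.223. The quantity compared includes the 4- and 6-week arrays, of which the young ones had the raised ratios, and with that ratio as a covariate 218 and 131 probe sets were called. The standard deviation of the difference over the 4108 probe sets averaging 200 or more across the 18 arrays was 0.85 for young rats, 0.88 for adult rats and 0.86 for older ones. Measured against the no-fracture array alone it was 0.78, 1.28 and 1.44. By this measure the no-fracture array lay nearest to the callus phase in young rats.

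In that second quantity, the callus phase minus no fracture, some probe sets were called different between ages. Against adult rats 431 probe sets had a higher difference in young rats (4.93%) and 226 a lower one (2.59%), and against older rats 315 (3.6%) and 218 (2.49%). In the brighter set of 4039 probe sets, 43 of these calls were higher and 180 lower against adult rats, and 21 and 162 against older rats. That set was chosen on the young signals alone. A high young start helps a probe set into it and a low one works against it, so the choice shapes this balance. Most of the higher calls were of probe sets dim in young rats, whatever their signal at the other ages. This test has 4 residual degrees of freedom and rests on 1 no-fracture array of each age, which the model fits exactly. Its standard errors and p-values therefore hold no spread between no-fracture animals. A difference between ages and one between single pools of rats cannot be told apart. The test was an alternative to the contrast over all times.

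The 6 widest lower differences in young than in older rats were those of Lox, Col11a1, Acan, Aebp1, Postn and Col5a2. Lox had a no-fracture signal of 2527 in young rats, 338 in adult rats and 56.1 in older ones, and its difference from no fracture was 1.88, 4.90 and 7.42. Young minus older rats, this came to -5.54 (SE 0.25, adjusted p = 0.000195). Acan started at 521, 30.7 and 18.8, the last of which is below the floor, and its difference in young minus adult rats came to -4.34 (SE 0.32, adjusted p = 0.00165). Col5a2, a minor fibrillar collagen, started at 10094, 2254 and 451, with differences of 0.33, 2.50 and 4.70, and Col11a1, a cartilage collagen, at 1015, 193 and 22.0, with differences of 1.22, 3.14 and 6.17. Spp1 started at 11577, 1651 and 1335, and Col1a1 at 35960, 16366 and 3711. Over the 43 genes of the fibrous, cartilage and bone lists, the highest and lowest of the 3 ages differed by a median of 2.39 on the log2 scale without fracture, 0.31 at 3 days, 0.48 at 1 week and 0.51 at 2 weeks. More than 2-fold lay between them in 39 genes without fracture and in 6, 6 and 7 at the callus times. At 1 week Lox had signals of 9976, 11150 and 12561 in young, adult and older rats, while Postn had 3765, 8149 and 9570 at 2 weeks and Spp1 19625, 11624 and 10979. Postn, periostin of the periosteum, and Aebp1, a collagen-binding protein, had differences of -4.60 and -4.71 in young minus older rats.

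Against adult rats Acan was the only one of these among the 6 widest. The others were Irf3, a factor that induces interferon, Gpx7, a peroxidase of the endoplasmic reticulum, Serpinb9, an inhibitor of granzyme B, Casp2, a caspase, and Apobec1, an RNA-editing enzyme, at -3.74 to -4.09. Casp2 started at 1121, 50.4 and 108 in young, adult and older rats, with differences from no fracture of -0.75, 3.08 and 2.09. Irf3 started at 1507, 97.4 and 77.6, with differences of -0.81, 3.28 and 3.27. Serpinb9 and Apobec1 started below the floor in adult rats, at 14.6 and 19.5. Of the 6 widest higher differences against adult rats, Dnaja3, a mitochondrial chaperone, had 2.86, Uqcrc2 2.17, Nptn, the adhesion protein neuroplastin, 1.86, Pdk2 1.75, Selenow 1.58 and Rxrg, a retinoid receptor, 1.56. Against older rats the 6 were Glul with 2.00, Slc1a2, a glutamate transporter, with 1.97, Or6a2, an olfactory receptor, with 1.73, Mep1a, a metalloprotease, with 1.61, Phkg1, a kinase of muscle glycogen breakdown, with 1.36 and Kcnh2, a potassium channel, with 1.16. All 12 of these started lower in young rats than in the age they were set against.

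**Figure D5:**
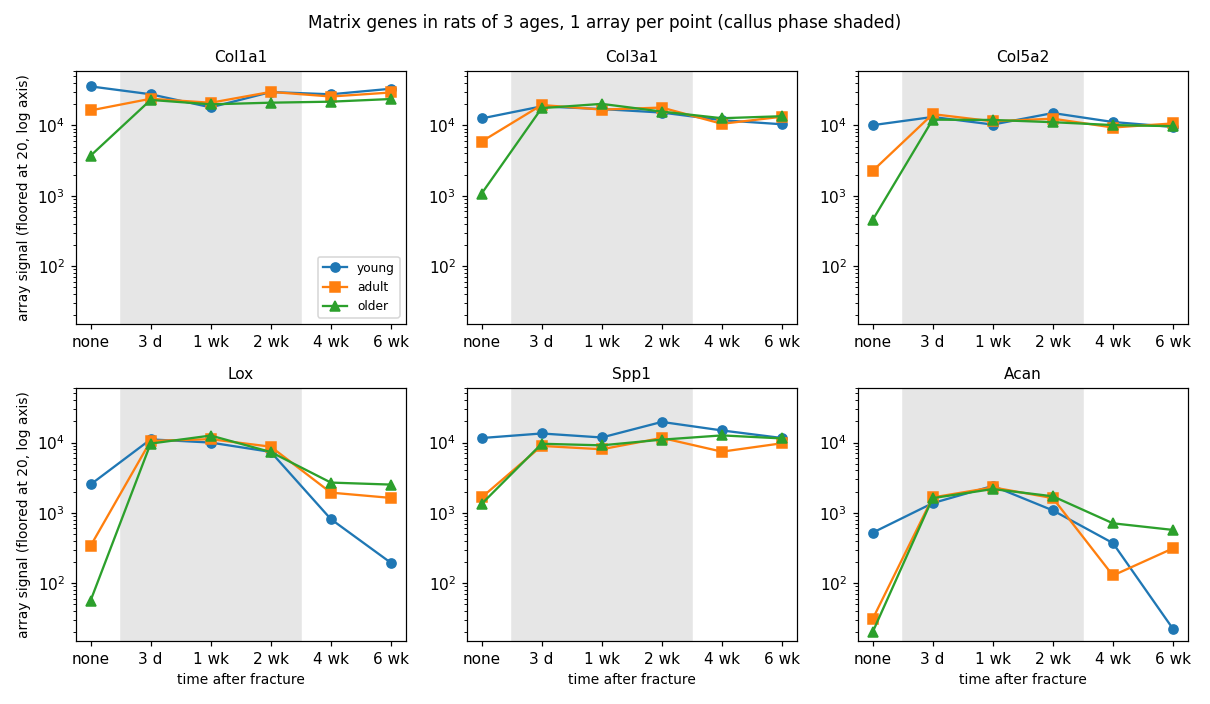
Signals of 6 matrix genes by time after fracture in young, adult and older rats, 1 array per point, on the same log axis in each panel, with the callus phase shaded. The ages differed most without fracture, where Col5a2 read 10094, 2254 and 451, and less from 3 days to 2 weeks.

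By list, the median of callus minus no fracture for fibrous matrix was 0.61 in young rats, 2.11 in adult rats and 2.83 in older ones, and in the same order it was 1.24, 3.14 and 3.70 for cartilage, 0.20, 1.78 and 2.40 for bone matrix, and 0.75, 1.50 and 1.88 for the secretory list. The young difference was lower than the older one in 11 of 20 fibrous, 8 of 14 bone, 2 of 9 cartilage and 4 of 25 secretory genes, and higher in 0 of each. Against adult rats it was lower in 6, 3, 2 and 4. Over all probe sets it was lower in 2.49% against older rats and in 2.59% against adult rats. Mitochondrial genes had medians of -0.35, -1.24 and -0.86 and a higher difference in young than in adult rats in 5 of 51, and than in older rats in 1. The shares of higher differences over all probe sets were 4.93% and 3.6%. Uqcrc2, a core protein of respiratory complex III, started at 962, 3827 and 1186 in the same order of ages, and Pdk2, a kinase that slows pyruvate oxidation, at 798, 2605 and 1745. Both had a higher difference in young than in adult rats, and against older rats their adjusted p-values were 0.575 and 0.192. Selenow, a selenoprotein abundant in muscle, started at 1537, 5722 and 3818, and its difference was -0.42, -2.00 and -1.46. Glul, glutamine synthetase, started at 4444 in young and 18888 in older rats, with differences of -0.39 and -2.39. For granulocyte genes the medians were -3.15, -3.41 and -4.30 and 0 of 9 differed between ages either way by this test.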

How the data were processed

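RNA of 2 rats was pooled on each of 18 Affymetrix rat arrays, and the 6 young arrays are the main material here. As deposited, the intensity values are on a linear scale: the authors computed signals with Microarray Suite 5.0, which set the mean of each array to 500. Of 8799 probe sets 59 controls were left out, signals below 20 were set to 20, and log2 values were fitted with limma 3.58.1 in R 4.3.3 with an intensity trend and Benjamini-Hochberg adjustment at 0.05. The brighter set, chosen as an alternative, is the 4039 probe sets whose signals averaged 200 or more. Of the 8740 tested, 7006 have 1 gene symbol, and the brightest probe set stands for a gene. Named were the 15 clearest genes each way, the 6 widest called each way between ages in the callus phase minus no fracture, and per list up to 5 called members and 2 bright ones not called. With few calls over all probe sets, list members were named through the brighter set, and some others singled out, after their values were seen. The members and the lists were chosen with earlier results of these data known. The tests were tried on simulated data. Tables and figures were made with pandas 2.3.3 and matplotlib 3.10.9 in Python 3.11.15.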

Additional observations from a re-analysis of the deposited data

Results flagged for a closer look

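The callus phase minus no fracture differed between young and adult rats in 657 probe sets and between young and older rats in 533, by limma with an adjusted p under 0.05, and 303 of these differed from both. Each number rests on 1 no-fracture array per age, so a difference between single pairs of rats and a difference between ages cannot be told apart.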

How the results depend on the processing

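Over all probe sets the contrast called 20 higher and 12 lower. A floor of 1 gave 100 and 91, an offset of 50 gave 182 and 135, no intensity trend 33 and 22, a spread shared over 18 arrays 113 and 102, and a mean signal of at least 200 gave 234 and 221. Scaling to the median gave 29 lower. The methods' t-test on log2 or on linear signals gave 0 after adjustment (784 and 652, and 814 and 709, unadjusted), and the Gapdh ratio as a covariate gave 0 and 0 (426 and 365 unadjusted). The no-fracture array alone gave 2 and 76. With 1 array left out the counts were 6 to 52 and 0 to 42. In the brighter set, where settings were added after seeing the data, they were 6 to 300 and 10 to 327 with 1 array left out, 0 and 1 with the covariate, and 0 and 0 (320 and 269 unadjusted) against the no-fracture array alone. For young minus adult rats the 0 calls became 1 with quantile normalization, 1 with no time term, 218 with the covariate, 657 without 4 and 6 weeks and 0 to 4 with 1 array left out. For young minus older rats they became 1, 131, 533 and 0 to 5 with quantile normalization, the covariate, no 4 and 6 weeks, and 1 array left out. The cause was not tested.

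Genes whose sign turned were not called and had small differences. With 1 array left out the difference ranged from -0.21 to 0.58 for Rag1, -0.13 to 0.76 for Mmp13, -0.22 to 0.80 for Acp5, -0.074 to 0.11 for Rpl27a, -0.17 to 0.19 for Pkm, -0.21 to 0.22 for Acat2 and -0.24 to 0.20 for Hspb1. Rag1 was -0.046 with a floor of 1. With the covariate Cd74 was 0.17 and B2m 0.16, and against the no-fracture array alone Cd74 was 0.32, B2m 0.18 and Acat2 -0.14. With quantile normalization Rps29 was 0.056 and Col1a2 0.0031. No paired analysis was possible because each time has 1 array and the labels give no replicate number that groups share. With 1 array per time, the 3 arrays of a phase limit the precision, and probe sets below 20 have no order.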
